A study of Mus musculus with 6 samples.

Results

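The distal nephron transcription factors described here are 10 genes: the Iroquois homeobox genes Irx1, Irx2 and Irx3, the POU homeobox gene Pou3f3, the bHLH-PAS genes Sim1 and Sim2, the estrogen-related receptor genes Esrra, Esrrb and Esrrg, and Ppargc1a, whose product is a coactivator of those receptors. They were given by symbol, and every probe whose accession maps to one of these symbols was taken, which gave 10 of the 20887 named genes and 14 of the 55681 probes on the array. Irx2, Sim2, Esrrg and Ppargc1a had 2 probes each and the other genes had 1. All 14 probes were well above background in Cy5 on all 6 arrays, so none of them entered the test through 1 group only.

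RNA came from cells labelled as collecting duct (CD) cells, sorted for GFP and dsRED at postnatal day 1 from C57BL/6 mice under gestational high salt, with food of 5% sodium. The 3 knockout (KO) samples were Hoxb7cre+; Bdkrb2 f/f; R26RtdTomato. The 3 wild-type (WT) samples were Hoxb7cre+; R26RtdTomato; Bdkrb2+/+. All 6 samples therefore carried the Hoxb7 Cre, which is active in the ureteric lineage that makes the collecting duct, the tdTomato reporter and the gestational salt load, and no group without salt is analysed here. Bdkrb2 codes for the bradykinin B2 receptor, and the comparison asks how its loss changes the RNA of these cells under gestational high salt. The replicates are biological, according to the design text, and the number of animals behind each one is not in the labels. The mating the labels describe is between parents that are both Bdkrb2 F/F and gives no Bdkrb2+/+ pups, so litter and genotype cannot be told apart.

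Each array carried the sample in Cy5 and the RNA of WT replicate 1 in Cy3, so every ratio is a sample over that reference and the array of WT replicate 1 set this RNA against itself. The Bdkrb2 probe failed the test for signal well above background on all 6 arrays (Cy5 signals 2.98 to 5.70), so it does not check the genotype labels. Between 49.8% and 52.7% of spots were well above background in Cy5 on WT arrays, and between 56.6% and 57.5% on KO arrays. Markers of principal cells (8 of 10) and intercalated cells (10 of 10) were well above background on all 6 arrays. So were 12 of 12 markers of the proximal tubule, 8 of 8 of podocytes, 13 of 14 of stroma and 9 of 10 of nephron progenitors, cells that are not of the collecting duct. The same held for 5 of 5 listed loop of Henle genes and 25 of 27 thick limb and distal tubule genes. Those segments belong to the nephron and not to the collecting duct. Which cells gave the members' signal was not tested. In these bulk samples, fewer cells of a type and less RNA per cell cannot be told apart.

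The nephron is patterned along its length by transcription factors that switch on the transporters of each segment. Iroquois proteins mark its intermediate part, and in Xenopus the orthologs of Irx1 and Irx3 are needed for the intermediate tubule. In mice Pou3f3, also called Brn1, is needed for the loop of Henle to elongate and for its thick ascending limb to mature. SIM proteins bind DNA together with ARNT proteins, and in zebrafish a Sim1 ortholog is needed for the straight part of the proximal tubule. The estrogen-related receptors bind DNA without a known natural hormone and, with PGC-1 coactivators, drive the genes of mitochondrial respiration on which salt-transporting segments depend.

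Promoter sequences of 8 of the 10 genes (12 start sites) were found in the RefSeq table, on GRCm38.p6. Each covers 250 bases before to 50 bases after a transcript start. They are shown for 4 genes: Irx2 and Irx3, paralogs that behaved differently in KO, and Sim1 and Ppargc1a, the only genes of the 8 whose promoters held any of the motifs searched. Capitals mark a match to ACANNTGT, a motif bound by Iroquois proteins of Drosophila. The sequences run 5′ to 3′ on the strand of the gene.

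Irx2, chr13:72628570-72628869, plus strand: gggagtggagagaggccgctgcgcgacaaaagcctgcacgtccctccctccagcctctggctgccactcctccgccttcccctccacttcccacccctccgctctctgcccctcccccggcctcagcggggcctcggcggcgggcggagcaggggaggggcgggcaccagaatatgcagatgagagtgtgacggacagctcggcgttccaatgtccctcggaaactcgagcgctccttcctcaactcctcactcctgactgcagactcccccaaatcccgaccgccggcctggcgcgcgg
Irx3, chr8:91801605-91801904, minus strand: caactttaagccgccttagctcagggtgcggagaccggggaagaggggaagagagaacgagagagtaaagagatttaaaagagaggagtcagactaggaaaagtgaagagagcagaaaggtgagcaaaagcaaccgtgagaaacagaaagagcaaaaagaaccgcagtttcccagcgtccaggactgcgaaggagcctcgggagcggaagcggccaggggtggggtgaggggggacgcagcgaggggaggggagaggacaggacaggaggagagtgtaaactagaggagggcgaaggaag
Sim1, chr10:50895401-50895700, plus strand: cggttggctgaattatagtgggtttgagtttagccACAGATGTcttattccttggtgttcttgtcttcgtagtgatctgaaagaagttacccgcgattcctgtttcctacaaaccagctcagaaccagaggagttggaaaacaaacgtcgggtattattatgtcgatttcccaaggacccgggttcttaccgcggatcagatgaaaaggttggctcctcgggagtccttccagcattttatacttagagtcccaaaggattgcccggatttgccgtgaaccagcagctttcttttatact
Ppargc1a, chr5:51567676-51567975, minus strand: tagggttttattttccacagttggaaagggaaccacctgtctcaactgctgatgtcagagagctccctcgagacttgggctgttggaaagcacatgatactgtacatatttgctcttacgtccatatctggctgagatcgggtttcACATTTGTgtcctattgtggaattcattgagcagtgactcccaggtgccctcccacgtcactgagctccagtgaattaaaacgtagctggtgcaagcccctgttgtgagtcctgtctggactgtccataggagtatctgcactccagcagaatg

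In Sim1 the match reads ACAGATGT and begins at position -215 from the start, and in Ppargc1a it reads ACATTTGT and begins at -104. This motif reads the same on both strands, and 7.38% of the 32851 mouse promoters of that length in the table held it. None of the 12 promoters held the estrogen-related receptor element TNAAGGTCA (held by 1.28% of all promoters), the nuclear receptor half-site AGGTCA that lies within it (16.3%), the octamer ATGCAAAT of POU proteins (1.74%) or the SIM-ARNT element TACGTG (3.23%), each searched on both strands. These matches describe letters in the window and are not tested as binding sites.

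Of the 10 genes, 9 fell in KO cells at their probe of highest Cy5 signal. After loess the largest falls were those of Esrrb (3.99-fold), Ppargc1a (3.73-fold), Irx2 (3.13-fold) and Irx1 (3.03-fold). Irx3 and the dimmer of the Sim2 probes did not pass the test. Of the 14 probes, 12 were called lower and 0 higher (limma, adjusted p under 0.05), 11 of them at least 2-fold lower. Over all 29811 probes tested, 25.3% were called, 14.2% lower and 11.2% higher, and 3.62% were called at least 2-fold lower. The median difference was -1.34 over the 14 member probes and -0.00 over all probes, both KO minus WT on the log2 scale. All 3 KO ratios lay below all 3 WT ratios for the same 12 probes, an arrangement seen in 23.6% of all probes tested, while the opposite arrangement was seen in 21.6% of all probes and in 0 member probes. The count over all probes was 7550, and it fell to 3804 without WT replicate 3 and to 4857 without WT replicate 1, while the member count was 12 without either.

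**Figure D1:**
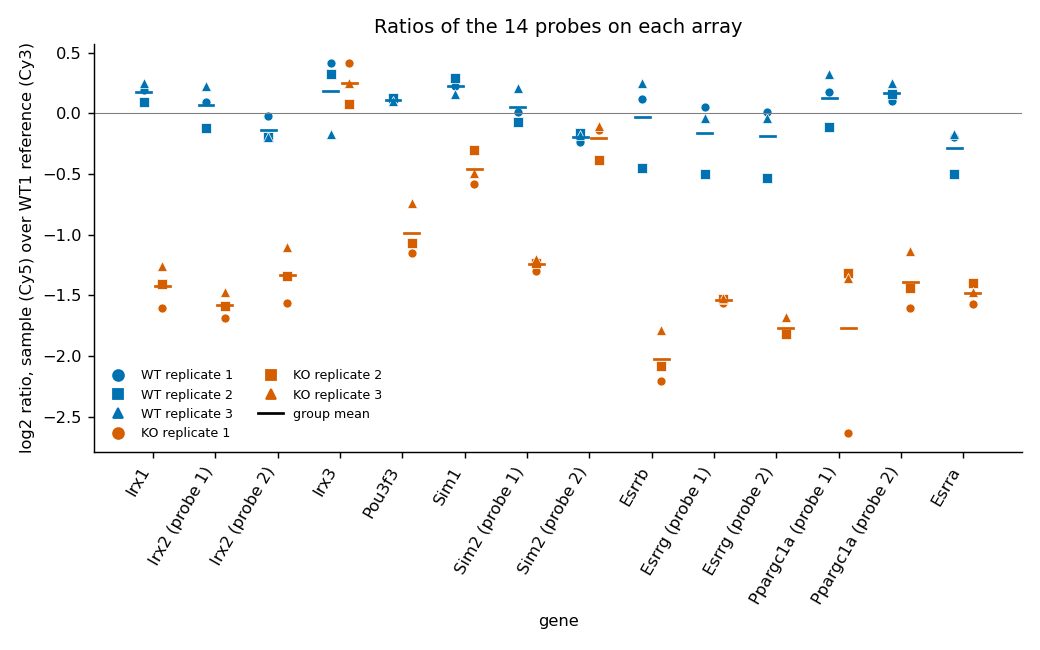
Ratio of sample (Cy5) to WT1 reference (Cy3) on each array, log2 after loess, for the 14 member probes (horizontal axis), with WT replicates in blue, KO replicates in orange, 1 point per array and a bar at each group mean. The KO points lie below the WT points for 12 probes, while the groups overlap for Irx3 and Sim2 probe 2, and the KO replicate 1 point of Ppargc1a probe 1 lies apart at -2.63.

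The Iroquois genes split. Irx1 gave Cy5 signals of 11269, 12000 and 11692 on the WT arrays and 6412, 8008 and 7896 on the KO arrays, against Cy3 signals of the common reference of 10683, 11298 and 9581 on WT arrays and 19363, 20518 and 18828 on KO arrays. The reference RNA was the same on every array and its Cy3 signal was nevertheless higher on KO arrays, so the ratio and not the signal was tested. The log2 ratios of Irx1 were 0.19, 0.09 and 0.25 in WT replicates 1 to 3 and -1.60, -1.40 and -1.26 in KO replicates 1 to 3. The groups were far apart, and Irx1 fell by 1.60 ± 0.12 (log2, SE, n = 3 arrays per group), a 3.03-fold lower level (limma adjusted p = 0.000347).

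Irx2, the neighbour of Irx1 in the same Iroquois gene cluster, gave ratios of 0.10, -0.12 and 0.23 in WT and -1.69, -1.58 and -1.47 in KO at its brighter probe. It fell by 1.65 ± 0.12 there (3.13-fold, limma adjusted p = 0.000347). At its dim probe, with Cy5 signals between 36.6 and 133, WT arrays had ratios of -0.02, -0.20 and -0.20 and KO arrays of -1.56, -1.34 and -1.10. Both probes separated the groups, and the dim one differed by -1.19 ± 0.14 (limma adjusted p = 0.000923). The size at the dim probe depends on the processing: it was -1.52 with a background offset of 16 in place of 50, which pulls the ratios of dim spots less towards 0, and -2.12 from the Agilent processed ratios, against -1.79 for the bright probe from those ratios.

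Irx3 was not called. Its Cy5 signals of 958, 1008 and 692 in WT and 2334, 1924 and 1600 in KO look higher in KO, but the reference on the same arrays gave 793, 806 and 797 in WT and 1707, 1803 and 1381 in KO. WT arrays had log2 ratios of 0.41, 0.32 and -0.17 and KO arrays of 0.42, 0.07 and 0.25, so the groups overlapped and WT replicate 3 was the lowest array. The difference was 0.06 ± 0.17 with a 95% interval of -0.34 to 0.46 (limma adjusted p = 0.833). That interval leaves out a fall of the size measured for Irx1 or Irx2, and it does not show that the level was the same.

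The KO minus WT difference of Irx1 minus that of Irx3 was -1.66 on the log2 scale, and it was -1.71 for Irx2 minus Irx3 and 0.05 for Irx1 minus Irx2. In the contrasts with Irx3 the 3 KO arrays did not overlap the 3 WT arrays. An exact permutation test over 3 and 3 arrays cannot give a 2-sided p under 0.1, and both gave 0.1 (0.138 after Benjamini-Hochberg adjustment over the 11 pairs of member probes compared); the contrast of Irx1 with Irx2 gave an exact p of 0.7. The other Iroquois genes, Irx4, Irx5 and Irx6, differed by -0.09, 0.01 and 0.04, and 0 of the 3 were called (limma adjusted p 0.528 to 0.978). Irx4 and Irx6 were dim, well above background on 1 and on 2 of the WT arrays.

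Pou3f3 gave ratios of 0.10, 0.13 and 0.10 in WT and -1.15, -1.07 and -0.74 in KO. The WT arrays lay close together and all KO arrays lay well below them. The gene fell by 1.10 ± 0.13 (2.14-fold, limma adjusted p = 0.000923). Its paralog Pou3f1, known for its part in myelinating Schwann cells, rose by 1.02 ± 0.12 (limma adjusted p = 0.00092). The size for Pou3f1 depends on the processing, being 1.49 from the Agilent processed ratios and 1.81 from Cy5 alone. The paralogs Pou3f2 and Pou3f4 were too dim to be tested.

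All 5 listed genes that need Pou3f3 for expression in the loop of Henle of mice fell here. They are Kcnj1, the ROMK potassium channel (-3.13 ± 0.25), Umod, which codes for uromodulin (-2.96 ± 0.31), Slc12a1, the sodium-potassium-chloride cotransporter (-2.70 ± 0.23), Bsnd, the barttin subunit of chloride channels (-2.36 ± 0.19), and Ptger3, a prostaglandin receptor (-1.86 ± 0.23). The limma adjusted p was between 0.000364 and 0.00115 for these 5, and 18.5% of all 14755 genes tested were called lower. The summed Cy5 signal of the 5 genes was 0.517 to 1.07 times the summed Cy3 signal on WT arrays and 0.0959 to 0.135 times on KO arrays. WT replicate 2 stood below the other WT arrays in this list, with a median log2 ratio of -0.74 against 0.01 and 0.14, and above every KO array. All 10 intercalated cell markers (median -2.35) and all 8 tested principal cell markers (median -1.78) fell too, while 9 of 10 nephron progenitor markers rose. Whether the fall of Pou3f3 had a part in that of the 5 genes was not tested.

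Sim1 is best known for its part in forming hypothalamic neurons. WT arrays had Sim1 ratios of 0.23, 0.29 and 0.16 and KO arrays of -0.58, -0.30 and -0.49. All KO ratios lay below all WT ratios, but the probe was dim, with Cy5 signals of 122 to 193. Sim1 fell by 0.68 ± 0.11 (1.61-fold, limma adjusted p = 0.00367), the smallest change among the called probes after loess. Its call was lost when arrays were centred on their medians in place of loess (-0.48, adjusted p = 0.0978) and when slide row was a block (-0.69, adjusted p = 0.0621).

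The 2 probes of Sim2, a paralog of Sim1, disagreed. The bright probe gave ratios of 0.01, -0.07 and 0.21 in WT and -1.30, -1.23 and -1.20 in KO, and it fell by 1.29 ± 0.11 (2.45-fold, limma adjusted p = 0.000405). The dim probe, with Cy5 signals between 111 and 241, gave -0.24, -0.16 and -0.18 in WT and -0.13, -0.38 and -0.11 in KO. There the groups overlapped, and the difference was -0.02 ± 0.11 (95% interval -0.27 to 0.24, limma adjusted p = 0.937). From Cy5 alone it was -0.31, also not called (limma adjusted p = 0.348). The Cy3 reference signal of this probe, centred on each array's median, differed by -0.25 between KO and WT arrays. The difference at the bright probe minus that at the dim probe was -1.28, and no KO array overlapped a WT array in the bright minus dim contrast (exact permutation p = 0.1, the smallest possible, 0.138 adjusted over 11 pairs). Both probes carry the same accession, and their places along the transcript are not known here.

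The difference of Sim1 minus that of Sim2 at its bright probe was 0.61 on the log2 scale, with no overlap between groups (exact permutation p = 0.1, 0.138 adjusted). From the Agilent processed ratios the differences were closer, at -1.02 for Sim1 and -1.29 for Sim2. Of the partners that SIM proteins need to bind DNA, Arnt, Arnt2 and Arntl differed by 0.18, -0.02 and -0.14, and 0 of the 3 were called (limma adjusted p 0.51 to 0.92).

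**Figure D2:**
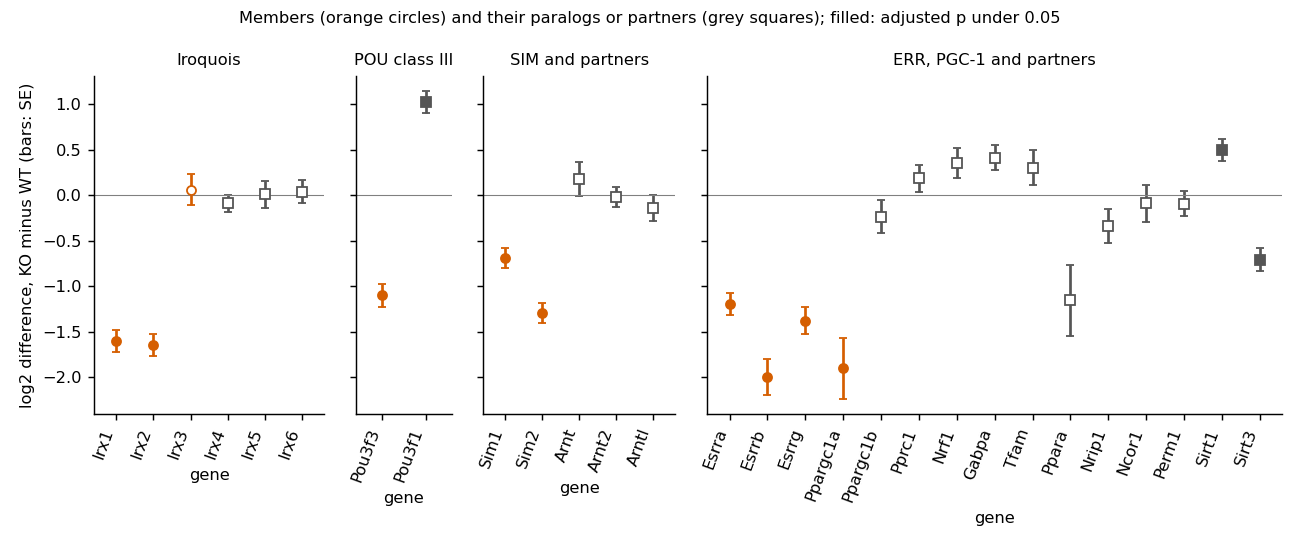
KO minus WT differences (log2, points) with their SE (bars) for member genes (orange circles) beside paralogs, partners or related genes (grey squares), by family, with filled points for a limma adjusted p under 0.05. Irx1 and Irx2 lie at -1.60 and -1.65 while the other Iroquois genes lie near 0, and Pou3f3 at -1.10 and Pou3f1 at 1.02 lie on opposite sides of 0.

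The estrogen-related receptors all fell. Esrrb, which in mice is needed in the potassium-secreting epithelium of the inner ear, gave ratios of 0.12, -0.45 and 0.25 in WT and -2.21, -2.08 and -1.78 in KO. WT replicate 2 was the lowest WT array and still lay far above every KO array. Esrrb fell by 1.998 ± 0.20 (3.99-fold, limma adjusted p = 0.000562). This was the largest change among the 14 probes after loess with all 6 arrays, whereas a Ppargc1a probe had the larger one from the Agilent processed ratios or the series matrix (-2.26 against -2.25) and without KO replicate 2 (-2.13 against -1.97).

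Esrrg, which in mice is needed for the renal papilla to form, was measured by 2 probes of like brightness. The first gave ratios of 0.05, -0.50 and -0.04 in WT and -1.56, -1.53 and -1.52 in KO, and the second gave 0.01, -0.53 and -0.04 in WT and -1.82, -1.82 and -1.67 in KO. Both put WT replicate 2 below the other WT arrays and all KO arrays lower still. Esrrg fell by 1.38 ± 0.15 at the first probe (limma adjusted p = 0.000769) and fell by 1.58 ± 0.16 at the second (2.996-fold, adjusted p = 0.000548).

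Esrra, the most widely expressed receptor of the family and a regulator of oxidative metabolism, gave ratios of -0.19, -0.50 and -0.17 in WT and -1.57, -1.39 and -1.47 in KO. It fell by 1.19 ± 0.12 (2.28-fold, limma adjusted p = 0.000612). Its fall was smaller than that of Esrrb by 0.81 with no overlap between groups (exact permutation p = 0.1, 0.138 adjusted) and differed from that of Esrrg by 0.19 with overlap (exact permutation p = 0.2, 0.244 adjusted). The ratio of Esrra on the array of WT replicate 1 was -0.19 although both channels held the same RNA. An offset of that kind cancels in the difference between the groups only if it is equal on all arrays. Whether it was equal was not tested.

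Ppargc1a codes for PGC-1alpha, the coactivator that links these receptors to mitochondrial gene expression. Its bright probe gave ratios of 0.17, -0.11 and 0.32 in WT and -2.63, -1.32 and -1.36 in KO, so KO replicate 1 lay far below the other KO arrays. The difference was -1.90 ± 0.33 (3.73-fold, limma adjusted p = 0.00522), and -1.47 when KO replicate 1 was left out. A block for slide row gave -1.94, which was not called (adjusted p = 0.072). The dim probe, with Cy5 signals of 96.3 to 233, gave 0.10, 0.16 and 0.25 in WT and -1.60, -1.43 and -1.13 in KO, with KO replicate 1 close to the others. There Ppargc1a fell by 1.56 ± 0.14 (2.95-fold, limma adjusted p = 0.000429), and the difference was -2.26 from the Agilent processed ratios.

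Of 11 other genes tied to the receptors or to PGC-1 coactivators, not all of them direct partners, 1 was called lower and 1 higher, with a median of -0.09. The mitochondrial deacetylase gene Sirt3 fell by 0.71 ± 0.13 (limma adjusted p = 0.00637), and the deacetylase gene Sirt1 rose by 0.49 ± 0.13 (adjusted p = 0.0239). Neither was called with slide row as a block. Sirt1 was also not called from the Agilent processed ratios, nor without KO replicate 2 or any 1 of the WT replicates, and Sirt3 was not called after median centring. The coactivator genes Ppargc1b and Pprc1, paralogs of Ppargc1a, differed by -0.24 ± 0.18 and 0.18 ± 0.15 and were not called (limma adjusted p 0.374 and 0.401). The nuclear respiratory factor genes Nrf1 and Gabpa gave 0.35 and 0.41, the mitochondrial transcription factor gene Tfam gave 0.30, and the corepressor genes Nrip1 and Ncor1 gave -0.34 and -0.09, none of them called. Ppara, a receptor that drives fatty acid oxidation, gave -1.15 ± 0.39 and missed the threshold (limma adjusted p = 0.0654), and Perm1 gave -0.09.

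Of 27 metabolic genes known as targets of the estrogen-related receptors, 26 fell and 0 rose after loess, with a median of -0.98. Among genes by their probe of highest Cy5 signal, 18.5% of 14755 were called lower and 13.8% higher, with a median of -0.02. The falls with the smallest p were those of the fumarase gene Fh1 (-1.13 ± 0.12), the mitochondrial creatine kinase gene Ckmt1 (-1.82 ± 0.20), the isocitrate dehydrogenase subunit gene Idh3a (-1.22 ± 0.13) and the cytochrome c gene Cycs (-1.42 ± 0.16), with limma adjusted p between 0.000603 and 0.000812. The member not called was Ndufa4, of the respiratory chain, at -0.49 ± 0.20 (adjusted p = 0.105). This count depends on the scaling: with arrays centred on their medians, which moved the median of all probes from -0.00 to 0.22, 9 of the 27 were called lower. The summed Cy5 signal of these genes was 0.767 to 1.06 times Cy3 on WT arrays and 0.465 to 0.484 times on KO arrays.

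**Figure D3:**
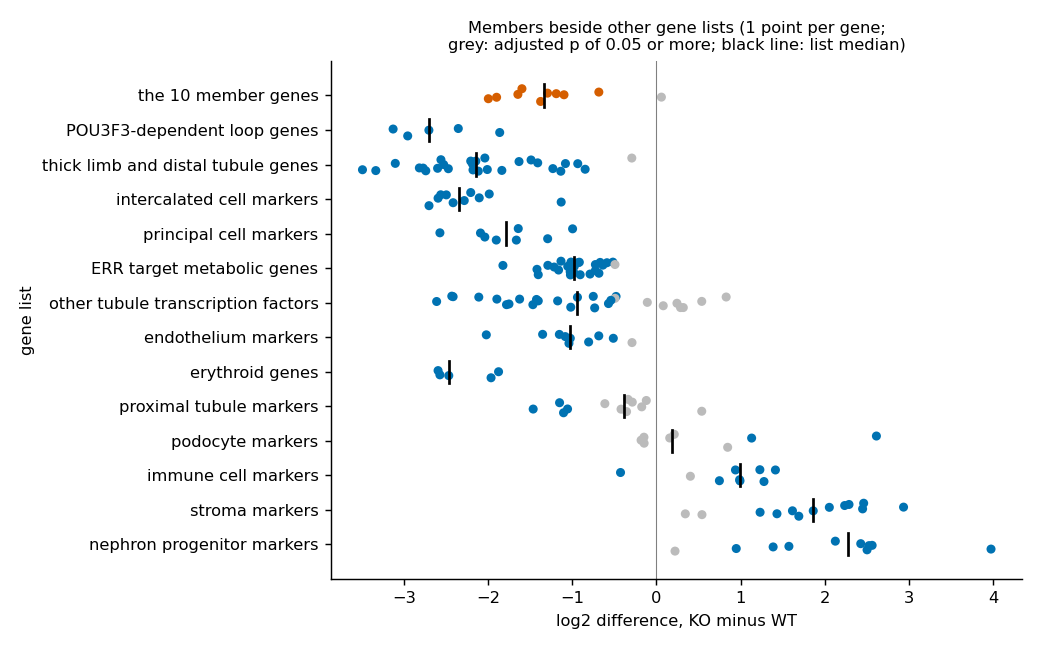
KO minus WT differences (log2), 1 point per gene, for the members and for the other gene lists, with grey points for a limma adjusted p of 0.05 or more and a black line at each list's median. The members' median is -1.34, the loop, thick limb and duct cell lists lie lower, and the nephron progenitor and stroma lists lie above 0 with medians of 2.28 and 1.86.

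Genes of the thick ascending limb and the distal tubule were lower as well. Of 27 thick limb and distal tubule genes, 26 fell and 0 rose, with a median of -2.15. They include Kcnj10, a basolateral potassium channel gene (-2.74 ± 0.21), Tmem213 (-2.53 ± 0.16) and the tight junction gene Cldn10 (-2.21 ± 0.16), each with a limma adjusted p of 0.000347. The member not called was the sodium-calcium exchanger gene Slc8a1 at -0.29 ± 0.13. Whether duct cells also express genes of this list was not tested, and the intercalated cell markers had a median of -2.35. The summed Cy5 signal of the thick limb and distal tubule list was 0.615 to 1.13 times Cy3 on WT arrays and 0.14 to 0.18 times on KO arrays.

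Of 27 other transcription factors of tubule and duct, 19 fell and 0 rose, with a median of -0.94. Hmx2 differed by -2.61 ± 0.21, Dmrt2, a factor of intercalated cells, by -2.43 ± 0.17, Tfcp2l1, which patterns the cells of the duct, by -2.11 ± 0.19, and Tfap2b, a factor of the distal tubule, by -1.75 ± 0.10. The limma adjusted p of these 4 was between 0.000347 and 0.000432. The 8 not called included Hnf4a (0.54), Lhx1 (0.83), Pax2 (0.29), Pax8 (0.32), Tfap2a (-0.49), Emx2 (0.08) and Dach1 (0.24), and of these Hnf4a, Lhx1, Pax2 and Pax8 act in the early or proximal nephron. With slide row as a block 9 of the 27 were called lower. Median centring gave 14 lower and 2 higher, and 1 was called higher with array weights, with 1 probe per gene and without KO replicate 1 or KO replicate 2.

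Markers of the cell types in the samples moved with these results, and their part in the members' falls was not tested. All 8 tested principal cell markers fell (median -1.78), with a summed Cy5 signal of 0.97 to 1.03 times Cy3 on WT arrays and 0.227 to 0.279 times on KO arrays. All 10 intercalated cell markers fell (median -2.35), with sums of 0.696 to 1.12 times on WT arrays and 0.163 to 0.215 times on KO arrays. Of the principal cell list, Kcne1 and Scnn1g were below that level on every array and were not tested.

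Markers of other cell types moved in both directions. Of 10 nephron progenitor markers, 9 rose (median 2.28), with sums of 1.18 to 1.32 times Cy3 on WT arrays and 2.73 to 4.51 times on KO arrays, and of 13 tested stroma markers 11 rose (median 1.86), with sums of 0.364 to 1.02 times and 2.1 to 2.74 times. Podocyte markers gave 2 higher and 6 not called of 8, and immune cell markers 7 higher and 1 lower of 9. Proximal tubule markers gave 4 lower and 8 not called of 12 (median -0.39), endothelial markers 9 lower of 10 (median -1.03), and erythroid genes 5 lower of 5 (median -2.47). The lists share genes. Slc4a1 (-2.60) counts as erythroid and as intercalated, so its fall is not particular to either. Foxi1 (intercalated) and Hnf4a (proximal tubule) also count among the other transcription factors. With slide row as a block, 5 of the nephron progenitor, 6 of the stroma, 5 of the endothelial and 0 of the immune cell markers were called. In that fit the podocyte list had 1 call in each direction, its median moving from 0.18 to -0.49, and the proximal tubule list had 2 lower calls, its median moving to -0.89. The members' median of -1.34 lies between the median of the endothelial markers and those of the duct cell markers.

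The common reference allowed a check on the arrays themselves. The same RNA gave a Cy3 signal 1.96-fold higher on KO arrays at the median of 26029 probes, and the member probes gave log2 differences of 0.72 to 1.21 in Cy3. After each array's Cy3 signal was centred on its median, the member probes differed between KO and WT arrays by -0.25 to 0.24, against a 5th to 95th percentile range of -0.23 to 0.21 over all probes. The 2 ends, both outside that range, were the dim probes of Sim2 (-0.25 ± 0.08) and Ppargc1a (0.24 ± 0.15). None of the 14 was called there, and of the 26029 probes 0 were called by limma (0%), with 1645 at an unadjusted p under 0.05. KO replicate 1 correlated with the other arrays in Cy3 at 0.994 to 0.995, against 0.996 to 0.998 among the other 5.

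**Figure D4:**
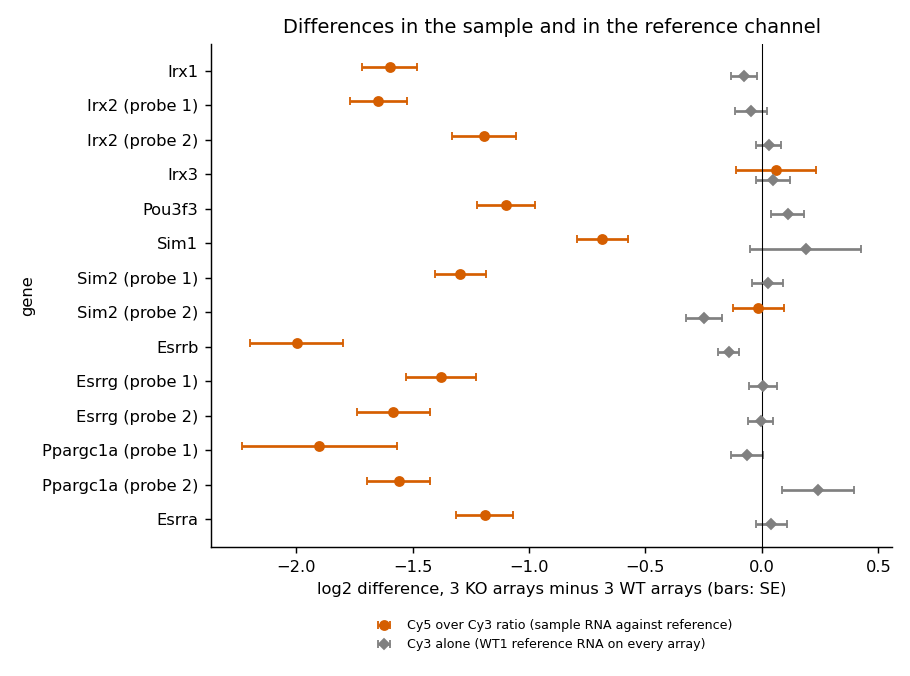
KO minus WT differences (log2) of the 14 member probes in the sample over reference ratio (orange circles) beside the difference of the median-centred Cy3 reference signal between KO and WT arrays (grey diamonds), with SE as bars and n = 3 arrays per group. The ratio differences of 12 probes lie between -1.998 and -0.68, while the reference differences all lie between -0.25 and 0.24.

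For each member the gene with the most similar profile was found as the one, of 14754 others, with the smallest root mean square difference over the 6 log2 ratios. For Irx1 it was Gpr160 (0.09), for Irx2 Pigz (0.08), for Irx3 Ppp2r1b (0.11), for Pou3f3 Bspry (0.06) and for Sim1 Pcdh17 (0.08). For Sim2 it was Casz1 (0.06), for Esrrb Tfcp2l1 (0.10), for Esrrg Tldc2 (0.08), for Ppargc1a Itga6 (0.16) and for Esrra Mpc2 (0.05). Tfcp2l1 is itself a transcription factor of the duct cells, Casz1 a zinc finger factor, and Mpc2 a subunit of the mitochondrial pyruvate carrier. The likeness for Ppargc1a was the loosest of the 10, and its profile includes the low ratio of KO replicate 1. These are descriptions over 6 arrays that share 2 groups and 1 reference RNA.

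The results were recomputed under 19 alternatives. The 12 called probes were lower in KO under every alternative in which they were present, and between 10 and 12 of the 14 probes were called in each, or 9 of 10 with 1 probe per gene. Slide row deserves its own value, because the row holding all KO arrays holds only 1 WT array, that of WT replicate 1, and the other row holds WT only. The difference with row as a block is thus the KO mean minus WT replicate 1, and it also is the value within that row. It was -1.61 for Irx1, -1.68 and -1.31 for the probes of Irx2, -1.09 for Pou3f3 and -1.25 for the bright probe of Sim2. It was -2.14 for Esrrb, -1.59 and -1.78 for Esrrg, -1.49 for the dim probe of Ppargc1a and -1.28 for Esrra. All of these were called by limma, while the -0.17 of Irx3 was not. In that fit 10 of the 14 probes were called, while the count over all probes was 2182.

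**Figure D5:**
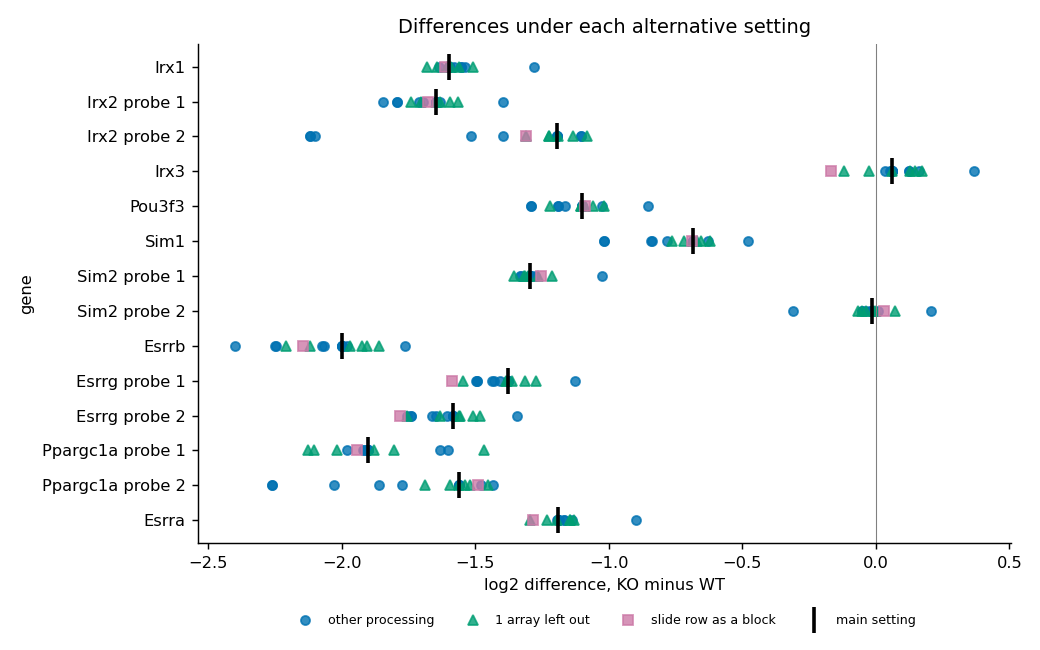
KO minus WT differences (log2, horizontal axis) of each member probe under the main setting (black bar), under each alternative processing (blue circles), with 1 array left out (green triangles) and with slide row as a block (pink squares). The 12 called probes stay below 0 throughout, Irx3 ranges from -0.17 to 0.37 and Sim2 probe 2 from -0.31 to 0.21, and the dim probes Irx2 probe 2 and Ppargc1a probe 2 reach -2.12 and -2.26.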

How the data were processed

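Microarray data of 3 KO and 3 WT samples were used, on 2-colour Agilent arrays with Cy5 for the sample and Cy3 for WT replicate 1; the series text calls the experiment single-colour. Per the file headers, the deposited intensities of each spot were written by Agilent Feature Extraction 10.7.3.1 (the submitters' processing notes name version 6.1), with background-subtracted and dye-normalised processed intensities and their log10 ratio beside the median intensities. The log10 ratios of the deposited series matrix were those of the scanner files, each to within 0.00499. Per the file headers, 3671 of 62976 spots per array are controls.

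Median intensities were background-corrected (normexp, offset 50) and loess-normalised within arrays with limma 3.58.1 in R 4.3.3, controls at weight 0 and outlier spots (196 to 403 per array) left out. All values in the text are log2 ratios computed from the deposited intensities unless named otherwise. Probes well above background in Cy5 on at least 3 arrays were tested (29811) with limma's lmFit and eBayes (degrees of freedom 4 residual and 3.88 prior) and adjusted over all of them by Benjamini-Hochberg at 0.05. Accessions were matched to a RefSeq table on GRCm38.p6, which named 27509 probes of 20887 genes. The fit was also run on simulated data with independent noise for each probe. That simulation held no slide row and no shared reference, so it does not check the calls made here. The number of arrays limits the precision.

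The members and gene lists were chosen with earlier results of these data known, so no list is independent evidence. The text names every member probe, the paralogs and partners, the loop genes, up to 4 genes of smallest p per other list, uncalled genes of a list and each member's nearest profile; some genes this rule would name are not reported here. A gene is represented by its probe of highest mean Cy5 signal. Deviations from the group means correlated weakly between KO and WT samples of the same replicate number (0.14, 0.07 and 0.19). Between samples of different numbers the correlations were -0.16 to -0.01. The labels do not name the numbers as pairs, so the main fit left them out, and a fit with number as a block is given below. All arrays lie on 1 slide, whose row was tried as a block.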

Additional observations from a re-analysis of the deposited data

How the results depend on the processing

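The 12 called member probes kept their direction in all 19 alternatives, except that 1 probe per gene leaves out the second probes of Irx2, Esrrg and Ppargc1a, which were run in 18. Over all probes the count of calls was 7550. It moved to 2182 with slide row as a block (68.6% lower in KO against 56% in the main setting), and ranged from 3804 to 9500 when single arrays were left out. Median centring gave 6018 calls, of which 22.8% were lower in KO, and moved the median difference of all probes to 0.22. Sim1 lost its call under median centring (-0.48) and with slide row as a block (-0.69), and so did Ppargc1a probe 1 with slide row as a block (-1.94). The differences that did not pass the test changed sign: Sim2 probe 2 was 0.21 under median centring, 0.0070 without background correction and 0.029 with slide row as a block, and ranged from -0.066 to 0.072 when single arrays were left out. Irx3 was -0.17 with slide row as a block and ranged from -0.12 to 0.17 when single arrays were left out. The adjusted p (limma) lay between 0.352 and 0.921 for Irx3 and between 0.348 and 0.996 for Sim2 probe 2. Why these values moved was not tested. With replicate number as a block, 7240 probes and 12 member probes were called, and no member call changed; each sample correlated best with its own number, a hint from the data and not from the design. In the gene lists, 591 counts of calls stayed within 1.5 times of the main count and 55 moved beyond it. The number of arrays and the low signal of Sim1 and of the dim probes of Irx2, Sim2 and Ppargc1a limit what these data resolve.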
